A study of Danio rerio with 3 samples.

Results

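Cluster 4 is a small group of matrix-rich cells from adult zebrafish hearts, and 53 of its 54 cells came from the library made 7 days after ventricular heart muscle cells had been ablated. The cells were chosen by the cluster number deposited with each cell (cluster 4 at resolution 0.4, given without a name), and they are 54 of 754 cells in all. The hearts were profiled by droplet single-cell RNA sequencing (10x Chromium), and the study asked what amino acid supply and mTOR activity do while the heart regenerates. There was 1 library for each of day 0, day 3 and day 7. Each library pooled the cells of 6 hearts, 3 from males and 3 from females, digested as 2 sets of 3 hearts. All fish were adults of about 5 to 12 months and of strain AB according to the labels. Fish of day 3 and day 7 had been bathed for 48 hours in 5 mM metronidazole with 0.1% DMSO, and day 0 hearts are labelled as collected before the drug. Metronidazole kills cells that carry a bacterial nitroreductase. A line that expresses this enzyme and mCherry from the ventricular myosin promoter vmhc is among the lines listed by the submitters, and the labels do not say which line these libraries came from. Drug, injury and library cannot be told apart in any comparison between days.

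Fibroblasts are the connective tissue cells of the heart, and they secrete and remodel the extracellular matrix. After an injury they can take up contractile proteins such as smooth muscle actin, the state called a myofibroblast, while they lay down collagen, fibronectin and matricellular proteins that bind cells and growth factors. In the zebrafish heart, much of this matrix is transient, and cardiac fibroblasts derive largely from the epicardium, whose lineage is marked by the transcription factor Tcf21. Mural cells, the pericytes and smooth muscle cells of vessel walls, share the contractile genes but not most of the matrix programme.

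The cells of cluster 4 were set beside the endothelial-like cluster 0 and the mural-like cluster 1 of the same day 7 library, each kept as a reference of its own. Cluster 4 held 53 day 7 cells with 209177 unique molecular identifiers (UMIs, each standing for 1 captured transcript), cluster 0 held 193 cells with 690373 and cluster 1 held 61 cells with 212008. Median UMIs per cell were 3436 in cluster 4 (2027 to 14507), 2976 in cluster 0 and 2770 in cluster 1, and median detected genes were 689, 538 and 553. Mitochondrial transcripts made up a median of 0.613% of a cell's UMIs in cluster 4, 0.592% in cluster 0 and 0.592% in cluster 1. Levels are UMIs summed over the cells of a group and scaled to a total of 1000000 (CPM), with an exact Poisson 95% interval where one is given. Since clusters were made from these same genes and each day had 1 library, no difference between clusters was tested. The intervals cover counting error only and leave out the variation between cells, fish and libraries.

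The cells carried the matrix genes behind the name fibroblast-like, but few or no transcripts of some receptor and enzyme genes that define fibroblasts elsewhere. Of 6 genes given as markers of these cells, at least 3 were detected in 42 of the 53 cells (79.2%, exact interval 65.9 to 89.2), against 6 of the 315 other day 7 cells (1.90%, 0.702 to 4.10). After every cell was thinned to 2000 UMIs, the shares were 39 of 53 (73.6%, 59.7 to 84.7) and 0 of 315, which allows a share of up to 0.952%. A single cell of cluster 4 had none of the 6, 4 cells had 1, and 5 cells had all 6. Cluster membership rests on all genes, these included, so the counts describe the cells and are no independent evidence of what they are. Of 18 fibroblast markers found in the table, 15 had a UMI in the 53 cells. The growth factor receptor gene pdgfra had 2 UMIs, and the protease gene fap, the collagen receptor gene ddr2a and the Wnt antagonist gene sfrp1a had 0.

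Periostin b (postnb), a matricellular protein that links collagen to cell surfaces, was detected in 44 of the 53 cells (83.0%). Its level in a single cell ranged from 0 to 9449 CPM with a median of 2550.5. The summed level was 2916 CPM (2689 to 3157) in cluster 4, 52.1 in cluster 0 and 33.0 in cluster 1. It was thus 55.9-fold higher than in cluster 0 (39.9 to 80.6) and 88.3-fold higher than in cluster 1 (42.6 to 221). A postnb UMI was found in 16.1% of cluster 0 cells and 9.84% of cluster 1 cells, and in 81.1%, 10.4% and 3.28% of the cells of clusters 4, 0 and 1 after thinning. Fibronectin 1b (fn1b), an adhesive glycoprotein of provisional matrix, was detected in 47 cells, with a median of 1548 CPM and a highest value of 14365. Its summed level of 2037 CPM stood 35.1-fold above cluster 0 (25.4 to 49.9) and 27.0-fold above cluster 1 (16.4 to 47.6).

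Clusterin (clu), a secreted chaperone, was found in 37 cells and collagen XII (col12a1a), which decorates collagen fibrils, in 35. The clu level was 1425 CPM against 14.5 in cluster 0 and 61.3 in cluster 1. For col12a1a it was 769.7 CPM against 13.0 and 4.72. Both were broad within the cluster: the middle 50% of cells spanned 0 to 1981 CPM for clu and 0 to 1078 CPM for col12a1a.

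The remaining markers, lox and mgp, were each dominated by few cells. Lysyl oxidase (lox), which crosslinks collagen and elastin, had 360 UMIs in 30 cells, of which 267 lay in 1 cell. Without that cell its level fell from 1721 to 445 CPM, still above the 7.24 CPM of cluster 0 and the 51.9 of cluster 1. Matrix Gla protein (mgp), an inhibitor of calcification, was seen in 14 cells (26.4%), with 104 of its 234 UMIs in 1 of them. Its 198 CPM in cluster 1 came from 42 UMIs in 1 cell.

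**Figure D1:**
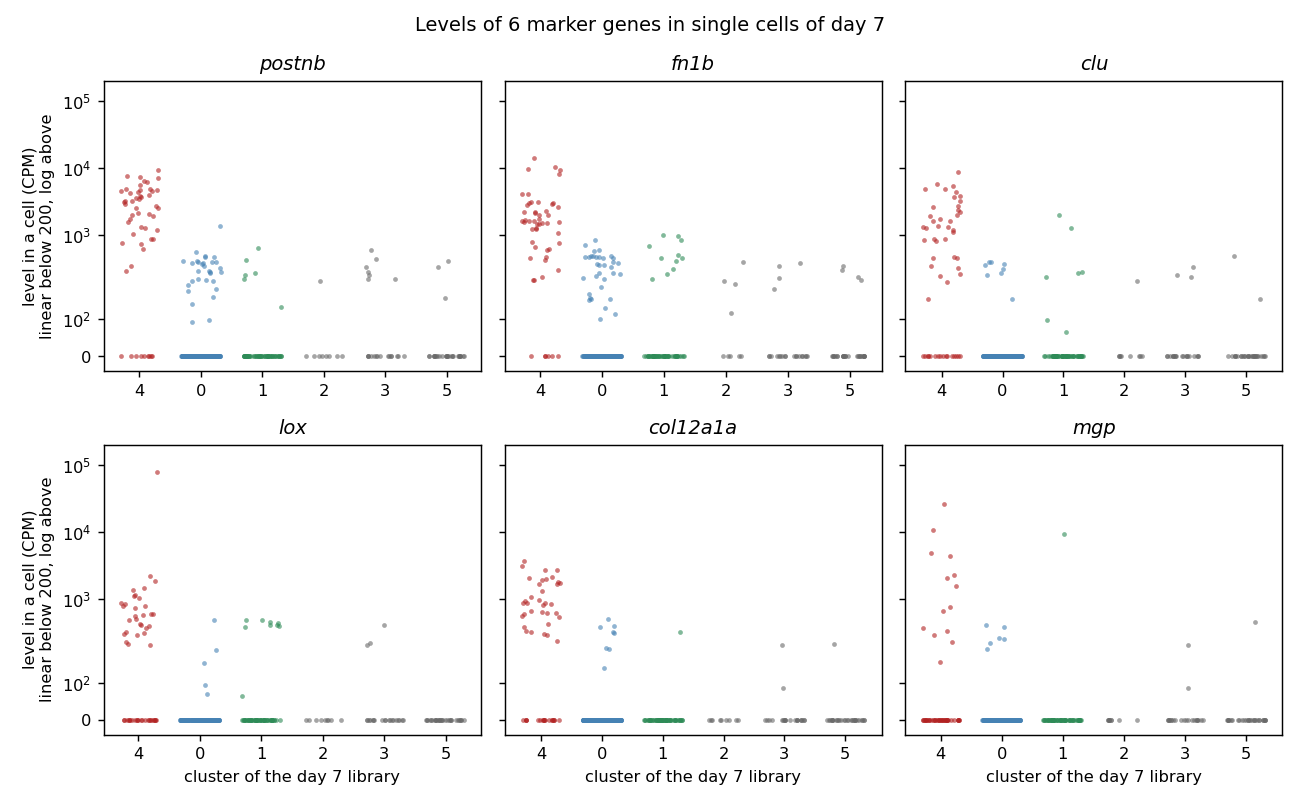
Level of 6 marker genes in each day 7 cell (CPM of that cell, linear below 200 and log above), by deposited cluster number; each point is 1 cell, spread sideways for clarity. In cluster 4, 44 of 53 cells held a postnb UMI and 14 an mgp UMI, and 1 cell stands far above the others for lox.

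Markers of endothelial cells, macrophages, B cells and neural cells were few in cluster 4, while contractile, heart muscle and some epicardial genes were found. The defining endothelial genes kdrl, cdh5, pecam1 and tie1 gave 13 UMIs together, in 10 of 53 cells, against 302 UMIs in 111 of 193 cells of cluster 0. The mural genes rgs5a, notch3 and myh11a, picked after their values were seen, gave 15 UMIs in 11 cells, against 866 in 55 of 61 cells of cluster 1. Of those 866, 772 were from rgs5a. Among all 7 mural markers compared with cluster 1, 3 were above it and 4 below. Macrophage genes mpeg1.1, csf1ra, marco and spi1b were at 0 UMIs. The epicardial genes tcf21, tbx18 and wt1b gave 27 UMIs in 12 cells, 24 of them from tcf21, against 5 in cluster 0 and 1 in cluster 1. Summed over whole marker lists, cluster 4 held 239 CPM of endothelial markers (14 of 22 detected), against 1378 in cluster 0. It held 2696 CPM of epicardial markers (8 of 9 detected), most of it keratin krt8 at 1774 CPM, against 3146 and 4986 in clusters 0 and 1. Mural markers summed to 11115 CPM (11 of 15 detected) against 20570 in cluster 1, through acta2, tagln and myl9a described further on. Macrophage markers summed to 71.7 CPM (6 of 17 detected), valve interstitial markers to 219.9 against 2803 in cluster 0, and erythroid markers to 66.9 against 2128. Much of the erythroid difference lay in single cells. For the 4 erythroid genes compared with cluster 0, the median log2 ratio (10 CPM added to both levels) was -3.78, and -0.64 without the richest cell of each group. Neutrophil markers summed to 148 CPM (2 of 9 detected), all but 2 of these UMIs from srgn, at 139 CPM in cluster 4 and 1160.2 in cluster 0. The thrombocyte list summed to 2094 CPM because fn1b, one of its genes, stood at 2037. B cell and neural markers had 0 UMIs.

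Heart muscle transcripts were present at low level in nearly all cells. Myosin light chain transcripts of myl7 were seen in 51 of 53 cells, at 1329 CPM, beside 4500.5 in cluster 0, 1575 in cluster 1 and 44419 in the cardiomyocyte-like cluster 5. Cardiomyocyte markers summed to 4475 CPM in cluster 4, 25265 in cluster 0 and 6844 in cluster 1. The ratio of myl7 to the second light chain gene cmlc1 was 2.03 in cluster 4 (1.65 to 2.51), 2.07 in cluster 1 (1.71 to 2.52) and 1.28 in cluster 0 (1.21 to 1.35). The ratio of mb, the myoglobin gene, to myl7 was 0.489 in cluster 4, 0.422 in cluster 1 and 3.08 in cluster 0. These proportions were thus close to those of cluster 1 and not to those of cluster 0. The tropomyosin gene tpm4a, which is on the same marker list, gave 270 UMIs in 46 cells. The part of free RNA and of doublets in any level was not tested.

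Cluster 4 was almost absent from the other libraries. It made up 53 of 368 cells at day 7 (14.4%, exact interval 10.98 to 18.4), 1 of 114 at day 3 (0.877%, 0.0222 to 4.79) and 0 of 272 at day 0, for which a share of up to 1.1% remains possible. The coarser deposited resolution put the same 54 cells in 1 cluster. The single day 3 cell had 4463 UMIs and 744 genes. Of the 6 markers it held only clu, at 12 UMIs, and it had 0 UMIs of postnb. It also held 10 UMIs of the growth factor gene mdka, 10 of rgs5b, 3 of cxcl12a and 3 of col1a1b. No day 0 cell and no other day 3 cell carried 3 or more of the 6 markers. Over all 272 day 0 cells, postnb had 0 UMIs, col12a1a 2, clu 2 and mgp 5, while lox had 17 and fn1b 64. The 113 other day 3 cells held 2 UMIs of postnb, 3 of col12a1a and 6 of fn1b. Of these cells, 29 held 1 of the 6 markers and 84 held 0. Those 29 are more than the UMIs named can cover, so some held lox, clu or mgp. Of the day 0 cells, 45 held 1 marker, 6 held 2 and 221 held 0. Because cells of a type may be lost in digestion or capture, the shares describe the cells recovered in 1 library per day.

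The genes of the cluster differed in how far they were found in the day 0 and day 3 libraries as a whole. In CPM summed over all cells of a library, col1a1b stood at 96.8 at day 0 and 196 at day 3, against 4714 in the day 7 cluster. For mdka, a growth factor gene, the values were 262, 161 and 7204, and for sparc 425, 722 and 8098. Other genes of the cluster were also found in uninjured hearts. The microfibril gene mfap5 reached 462 CPM and the galectin gene lgals2a 1094 CPM in the mural-like cluster 1 of day 0, whose contractile genes tagln and acta2 stood at 4357 and 5973. The day 0 and day 3 values come from other cell types for the most part, so they compare libraries and not fibroblasts across days.

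Genes were compared between cluster 4 and a reference when both together held at least 20 UMIs, and a gene counted as higher or lower when the log2 ratio, with 10 CPM added to both levels, passed 2 (4-fold). Of 2205 genes compared with cluster 0, 241 were higher in cluster 4 (10.9%) and 209 lower (9.48%). Of 1385 compared with cluster 1, 186 were higher (13.4%) and 125 lower (9.03%). Against all 315 other day 7 cells, 194 of 3019 were higher (6.43%) and 229 lower (7.59%). The median log2 ratio over all compared genes was 0.10 against cluster 0, 0.13 against cluster 1 and -0.08 against the other cells. Of 1303 genes compared with both references, 142 were higher than both (10.9%) and 7 lower than both (0.537%). Those 142 were 58.9% of the genes above cluster 0 and 76.3% of those above cluster 1. A gene with few UMIs in a reference is compared only where cluster 4 is high. This holds for every list below, so the counts describe the genes compared and not whole lists.

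Genes of the extracellular matrix were among those that ranked first against both references. Ranked by the smaller of the 2 log2 ratios among 717 genes with at least 20 UMIs and a UMI in at least 25% of the cells, the first 20 included 5 collagen chains (col8a1b, col12a1a, col12a1b, col5a1 and col1a2). They also included postnb, lox, fn1b, clu, the proteoglycan gene lum and the microfibril gene mfap2. The share of matrix genes among all 717 was not counted. The other named genes were crabp2a, which binds retinoic acid inside the cell, the G protein regulator rgs5b, the autophagy gene vmp1, the glutathione transferase gene gstm3 and the succinate dehydrogenase subunit gene sdhdb. For sdhdb, 346 of 365 UMIs lay in 1 cell, and without that cell the log2 ratios were 0.15 and 0.41. In all, 4 of the 20 had over 50% of their UMIs in 1 cell. The rest carry provisional names. Among these, si:ch211-11c15.3 was found in 44 cells at 1549 CPM, against 21.7 in cluster 0 and 84.9 in cluster 1, and si:dkey-12l12.1 in 33 cells at 784, against 5.79 and 9.43. The others were zgc:103438 and si:ch211-198c19.3.

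**Figure D2:**
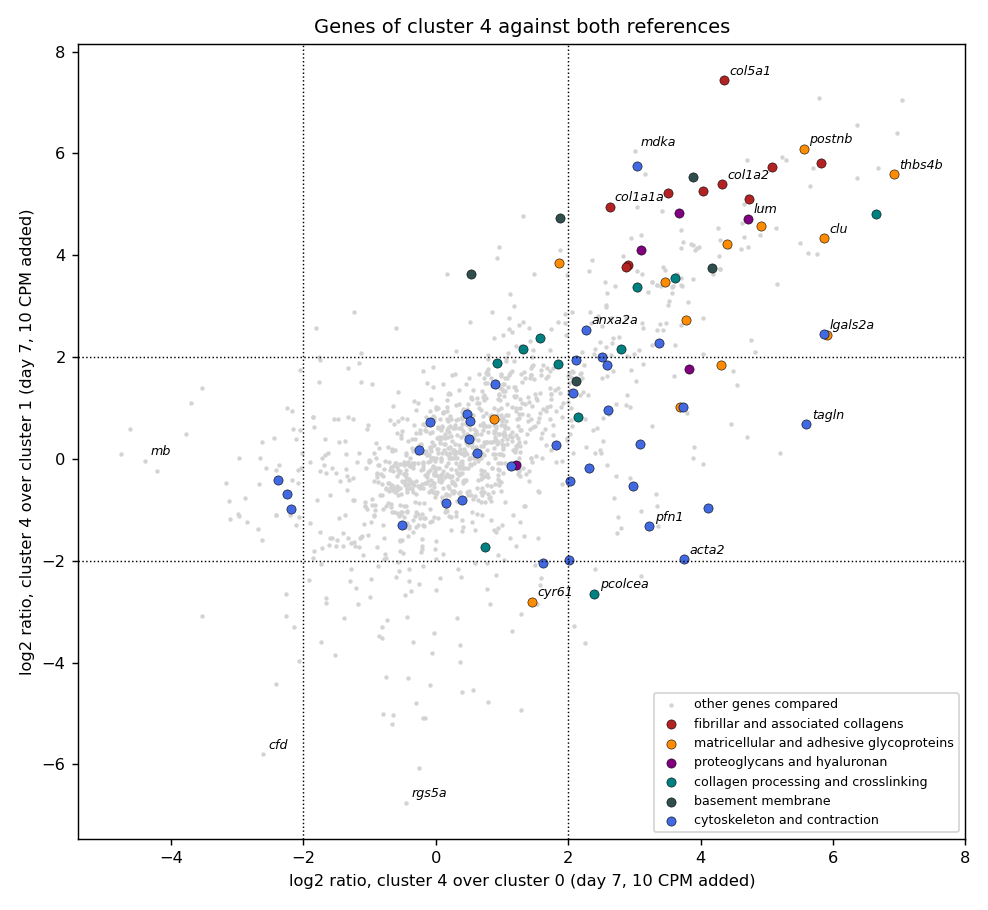
Log2 ratio of each gene compared with both references at day 7, cluster 4 over cluster 0 (x axis) and over cluster 1 (y axis), with 10 CPM added; each point is 1 gene, coloured for 6 gene lists, and dotted lines mark a 4-fold difference. Fibrillar and associated collagens lie in the upper right, with 10 of 10 compared chains of that list past 4-fold against both references. The whole list had 66 UMIs in cluster 1, and chains with few UMIs there enter only where cluster 4 is high. By contrast, tagln and acta2 are 52.8-fold and 14.2-fold above cluster 0 but 1.60-fold above and 3.94-fold below cluster 1.

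Every chain of the fibrillar and associated collagen list that could be compared was past 4-fold higher than both references. Besides fibrillar and fibril-associated chains, the list holds chains of other classes, among them col6a1, col6a2, col6a3 and col8a1b. Of 30 listed chains, 25 were in the table, 14 had a UMI in cluster 4 and 10 had at least 20, these chains included. Those 10 were compared, and 10 of 10 stood past 4-fold above cluster 0 (10.9% of all genes compared did) and 10 of 10 above cluster 1 (13.4% did), with medians of the log2 ratio of 4.18 and 5.24, against 0.10 and 0.13 over all genes. Chains with few UMIs enter such counts only where cluster 4 is high, so the counts describe the 10 and not the whole family. Collagen I is the main fibre-forming collagen of heart tissue. Its chain gene col1a1b was detected in 53 of 53 cells, with 246 CPM in the lowest cell, 2614 in the median cell and 42859 in the highest. The summed level was 4714 CPM against 278 in cluster 0 and 113 in cluster 1, a difference of 16.9-fold (14.5 to 19.9) and 41.6-fold (27.8 to 65.3). For col1a2, found in 52 cells with a median of 3039 CPM, the folds were 21.0 (17.4 to 25.6) and 47.1 (29.2 to 81.3). The third chain gene, col1a1a, was also found in 52 cells but stood only 6.29-fold above cluster 0 (5.45 to 7.28), where it had 289 UMIs.

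Collagen I UMIs were counted in part of the cells of the references too. The part of free RNA in these counts was not tested. Summed over the fibrillar and associated list, the level was 16780 CPM in cluster 4, 1121 in cluster 0 and 311 in cluster 1. It was higher than in both references in the day 7 cells of cluster 2 (9 cells, 3172 CPM) and cluster 3 (22 cells, 2960.5 CPM). A col1a2 UMI was found in 98.1% of cluster 4 cells, 35.8% of cluster 0 cells and 21.3% of cluster 1 cells, and thinned to equal depth in 98.1%, 21.2% and 14.8%. The ratio of postnb to col1a1b UMIs was 0.619 in cluster 4 (0.558 to 0.685) and 0.188 in cluster 0 (0.128 to 0.269). In cluster 1, with few UMIs, it was 0.292 (0.106 to 0.698), an interval that holds the cluster 4 value. Collagen V (col5a1), which starts collagen I fibres, was detected in 49 cells. It had 532 UMIs, 280 of them in the deepest cell, against 79 in cluster 0 and 1 in cluster 1. Without that cell its level was 1205 CPM and the fold over cluster 0 was 10.5. Collagen VI, a beaded filament collagen, was present through all 3 chain genes measured: col6a2 at 712 CPM, col6a3 at 382 and col6a1 at 196. Their folds over cluster 0 were 13.3 (9.22 to 19.6), 8.80 (5.72 to 13.9) and 11.3 (5.81 to 23.6). The second collagen XII gene, col12a1b, had 70 UMIs in 25 cells, 2 in cluster 0 and 0 in cluster 1, a ratio of 116 to cluster 0 (30.8 to 973). For col8a1b, 84 of 116 UMIs lay in 1 cell, although 17 cells held at least 1, and both references were at 0 UMIs. It was at least 128-fold higher than in cluster 0 and at least 39.2-fold higher than in cluster 1, counted against 3 UMIs in the reference.

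Some of the genes that fold, process and crosslink collagen were past 4-fold higher as well. Of 48 listed, 45 were in the table, 32 had a UMI and 10 had at least 20. Of 12 compared with cluster 0, 6 were past 4-fold higher and 0 lower, and of 11 compared with cluster 1, 6 were higher and 1 lower, where 10.9% and 13.4% of all genes were higher, with median log2 ratios of 2.00 and 2.17. The procollagen C-proteinase enhancer gene pcolce2b was found in 33 cells at 659.7 CPM, 14.7-fold above cluster 0 (9.89 to 22.5) and 14.0-fold above cluster 1 (7.38 to 29.8). Its relative pcolcea was divided differently: 172 CPM in cluster 4, 24.6 in cluster 0 and 1132 in cluster 1, where it was 6.58-fold higher than in cluster 4 (4.62 to 9.62). Others were above the references by less than 4-fold. The prolyl isomerase gene ppib, whose product acts on newly made collagen, was detected in 53 of 53 cells at 2357 CPM, 1.91-fold above cluster 0 (1.70 to 2.13) and 3.73-fold above cluster 1 (3.07 to 4.55). The collagen chaperone gene serpinh1b stood 3.87-fold above cluster 0 (2.78 to 5.42) and 3.91-fold above cluster 1 (2.40 to 6.65). Of the prolyl isomerases of the FKBP family, fkbp9 stood 13.2-fold above cluster 0 (6.49 to 29.6) and fkbp7 3.19-fold (2.20 to 4.63). The prolyl hydroxylase subunit gene p4ha1b had 25 UMIs and stood 2.85-fold above cluster 0 (1.60 to 5.03).

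Of 54 listed genes of the secretory pathway and the unfolded protein response, 46 had a UMI. Past 4-fold higher were 7 of the 32 compared with cluster 0 and 6 of the 26 compared with cluster 1 (10.9% and 13.4% of all genes were), and 0 were lower than either. The median log2 ratios were 1.44 and 1.23. The translocon gene sec61b, found in 40 cells, stood 3.47-fold above cluster 0 (2.68 to 4.49) and 6.33-fold above cluster 1 (3.93 to 10.7), while sec61g was at 899 CPM against 1159 and 1363. Of the 3 genes with the highest ratios to cluster 0, pdia6, tram1 and xbp1, all had over 50% of their UMIs in 1 cell. The protein disulfide isomerase gene pdia6 had 339 of 351 UMIs there, and its log2 ratio to cluster 0 was 5.28 with that cell and 0.64 without it. The unfolded protein response factor gene xbp1 went from 2.89 to 0.62, and the translocon-associated gene tram1 from 3.61 to 0.82. The chaperone gene hspa5, a standard readout of endoplasmic reticulum stress, had 28 UMIs in 13 cells and 134 CPM, against 26.1 and 56.6.

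Matricellular and adhesive glycoproteins held several of the strongest differences and some exceptions. Of 62 listed, 52 were in the table, 32 had a UMI and 13 had at least 20. Past 4-fold higher were 10 of 17 compared with cluster 0 and 9 of 14 with cluster 1 (10.9% and 13.4% of all genes). Lower were 1 and 2 (9.48% and 9.03% of all genes). The median log2 ratios of the list were 3.69 and 3.10, or 3.78 and 2.78 with genes at 0 UMIs in the reference set to their bound. The other fibronectin gene, fn1a, had 416 CPM, 35.9-fold above cluster 0 (17.4 to 85.8) and 3.83-fold above cluster 1 (2.40 to 6.36). The second periostin gene, postna, had 42 UMIs in 18 cells and stood 4.20-fold above cluster 0 (2.60 to 6.84). Microfibril genes split between the references: mfap2 was 48.8-fold and 37.5-fold above clusters 0 and 1, while mfap5, found in 39 cells at 698 CPM, was 15.5-fold above cluster 0 (10.5 to 23.7) and only 2.06-fold above cluster 1 (1.54 to 2.76). Connective tissue growth factor genes were both higher, ctgfa with 306 CPM against 13.0 and 37.7. For ctgfb there were 21 UMIs in 12 cells and 0 in both references, at least 23.1-fold and 7.09-fold higher counted against 3 UMIs. Their relative cyr61 was lower than in cluster 1, at 258 against 1858 CPM. Most of that reference level lay in 1 cluster 1 cell, and without the richest cell of each group the log2 ratio moved from -2.80 to 0.02. Thrombospondin 4b (thbs4b) had 288 UMIs in 13 cells, 254 of them in 1 cell that was also the richest in col8a1b. Without it, thbs4b stood at 163 CPM, against 1.45 in cluster 0 and 18.9 in cluster 1. Tenascin C (tnc), often named as a gene of injured heart tissue, had 2 UMIs in cluster 4.

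Of 29 listed proteoglycan genes, 12 had a UMI and 4 had at least 20. Above 4-fold were 4 of 6 compared with cluster 0 and 3 of 6 with cluster 1 (10.9% and 13.4% of all genes). Among the members compared, lum, ogn and gpc1b reached 20 UMIs only through cluster 4. Against cluster 1 the same held for dcn, so the counts of higher genes are no result about the list. Lower were 0, and the medians of the list were 3.39 and 2.94 (2.65 against cluster 1 at the bound). Lumican (lum), a small leucine-rich proteoglycan that spaces collagen fibres, had 53 UMIs in 26 of 53 cells and 0 in all 315 other day 7 cells. It was at least 96.8-fold higher than in those cells, counted against 3 UMIs, and had 1 UMI at day 0. Decorin (dcn), of the same family, was found in 44 cells at 1874 CPM, and 177 of its 392 UMIs lay in 1 cell. Without that cell its level was 1028 CPM, 7.47-fold above cluster 0 and 18.2-fold above cluster 1. Osteoglycin (ogn) had 34 UMIs in 12 cells, 7 in cluster 0 and 0 in cluster 1. The glypican gene gpc1b, a surface proteoglycan, had 32 UMIs, 1 in cluster 0 and 8 in cluster 1.

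Basement membrane genes were mixed. The matrix-binding protein gene sparc was detected in all 53 cells, at 239.8 CPM in the lowest, 7263 in the median and 52068 in the highest. Its summed 8098 CPM was 18.4-fold above cluster 0 (16.3 to 20.8) and 13.6-fold above cluster 1 (11.4 to 16.5). Collagen IV, the network collagen of basement membranes, showed no such gap to cluster 0: col4a1 was at 172 CPM against 116, a fold of 1.49 (0.973 to 2.23). Cluster 1 had 1 UMI of col4a1. For col4a2, 48 of 80 UMIs lay in 1 cell, and the log2 ratio to cluster 0 was 0.61 without it. The perlecan gene hspg2 had 141 UMIs of which 140 were in 1 cell, so its ratio is a value of that cell. Over the list, 3 of 8 compared with cluster 0 and 4 of 5 compared with cluster 1 were past 4-fold higher (10.9% and 13.4% of all genes were), and 0 were lower. The medians were 1.24 and 3.75, and 0.411 and 3.74 without the richest cell of each gene.

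**Figure D3:**
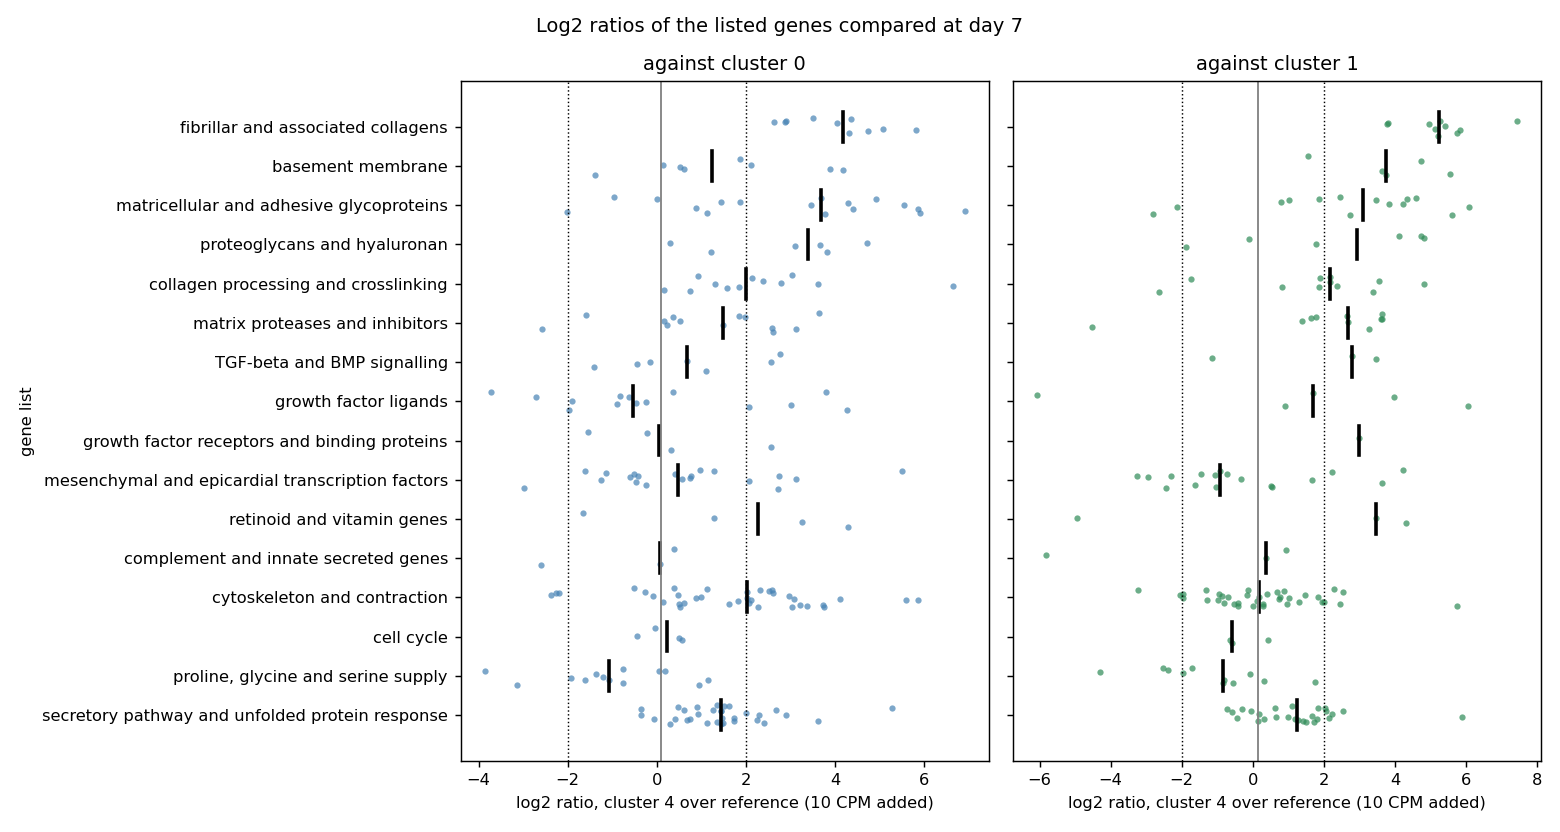
Log2 ratio of each compared member of 16 gene lists, cluster 4 over cluster 0 (left) and over cluster 1 (right), with 10 CPM added; each point is 1 gene, black bars are list medians, the grey line is the median of all compared genes (0.10 and 0.13) and dotted lines mark 4-fold. The fibrillar and associated collagens have the highest medians, and the contractile and cytoskeletal genes lie above cluster 0 but around 0 against cluster 1.

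Among genes that cut matrix or block its cutting, the gelatinase gene mmp2 was found in 29 cells at 292 CPM, 11.8-fold above cluster 0 (6.83 to 21.6) and 7.73-fold above cluster 1 (3.68 to 18.7). The protease inhibitor gene serpine2 was at 268 CPM, 7.39-fold (4.54 to 12.4) and 14.2-fold (5.24 to 53.9) above them. The serine protease gene htra3a had 24 UMIs in 10 cells and 0 in all other day 7 cells, while its relative htra1a had 13 UMIs and stood at 1665 CPM in cluster 1 against 62.1. Cathepsin K (ctsk), a collagen-degrading protease, and the inhibitor gene timp2a had 59 of 96 and 41 of 66 UMIs in 1 cell each. Over the list, 4 of 13 compared with cluster 0 and 6 of 10 compared with cluster 1 were past 4-fold higher. That held for 10.9% and 13.4% of all genes. The genes htra3a and mmp2 were compared only through their UMIs in cluster 4, and so was serpine2 against cluster 1. The counts of higher genes are thus no result about the list. Against each reference 1 was lower (9.48% and 9.03% of all genes). The median log2 ratios of the list were 1.48 and 2.67.

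Signalling genes were sparse. Midkine a (mdka), a heparin-binding growth factor, was the exception, with 1507 UMIs in 48 of 53 cells, a median of 5498 CPM and 23548 in the highest cell. It stood 8.11-fold above cluster 0 (7.38 to 8.93) and 72.7-fold above cluster 1 (47.4 to 118). The chemokine gene cxcl12a had 62 UMIs in 25 cells, 4 in cluster 0 and 2 in cluster 1, ratios of 51.2 (19.0 to 194) and 31.4 (8.34 to 265). For a second chemokine gene, cxcl18b, the levels were 497, 110.1 and 146 CPM. The secreted Wnt modulator gene dkk3b was 36.3-fold above cluster 0 (13.2 to 139) and 1.94-fold above cluster 1 (1.15 to 3.36). Neuregulin 1 (nrg1), a mitogen for zebrafish heart muscle, falls outside the naming rule for its low count and was looked up after the values were seen: it had 11 UMIs in 9 cells and 0 in both references. Of 74 listed ligand genes, 38 had a UMI and 4 had at least 20. Past 4-fold higher were 4 of 14 compared with cluster 0 and 2 of 5 with cluster 1 (10.9% and 13.4% of all genes). Lower were 2 and 1 (9.48% and 9.03% of all genes). The medians of the list were -0.539 and 1.70, so the ligands as a list were not above the median of all genes against cluster 0.

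Of 42 TGF-beta and BMP genes listed, 19 had a UMI and 3 had at least 20. Past 4-fold higher were 2 of 7 compared with cluster 0 and 2 of 3 with cluster 1 (10.9% and 13.4% of all genes). The median log2 ratios of the list were 0.68 and 2.77. The activin subunit gene inhbaa had 21 UMIs in 11 cells, 6 in cluster 0 and 0 in cluster 1, so it was compared only through cluster 4. The follistatin-like gene fstl1b, found in 31 cells, was 2.23-fold above cluster 0 (1.63 to 3.03) and 8.22-fold above cluster 1 (4.10 to 18.7). Against cluster 1, fstl1b too was compared only through its UMIs in cluster 4, so the count of 2 of 3 is no result about the list. The ligand gene tgfb3 was 1 of the 2 genes past 4-fold above cluster 0, but 73 of its 98 UMIs lay in 1 cell. Without that cell its level was 119.5 CPM against 60.8 in cluster 0, under 4-fold, and 1052 in cluster 1. Among 56 receptors and binding proteins, 22 had a UMI and only pdgfrl reached 20. This receptor-like gene was found in 37 cells at 445 CPM, 6.67-fold above cluster 0 (4.64 to 9.72) and 9.43-fold above cluster 1 (4.90 to 20.3).

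Few transcription factor genes were counted well enough to compare. Of 70 listed, 39 had a UMI and 9 had at least 20. Past 4-fold higher were 5 of 20 compared with cluster 0 and 3 of 17 with cluster 1 (10.9% and 13.4% of all genes were), and 1 and 4 were lower (9.48% and 9.03% of all genes), with medians of 0.48 and -0.93. The epicardial and fibroblast factor gene tcf21 had 24 UMIs in 12 of 53 cells, 3 in cluster 0 and 0 in cluster 1, a ratio of 26.4 to cluster 0 (8.02 to 137). It had 1 UMI at day 0 and 0 in the other day 3 cells. The epithelial-mesenchymal transition factor gene snai2 had 92 of 93 UMIs in 1 cell. The factor gene cebpb, found in 27 cells, was 8.02-fold above cluster 0 (5.09 to 12.9) and at 325 against 415 CPM in cluster 1. Genes encoding Id proteins, inhibitors of helix-loop-helix factors, differed among themselves. Against cluster 1, id3 stood at 258 against 1457 CPM and id2a at 124 against 1288, both past 4-fold lower, though the log2 ratio of id3 was -1.15 without the richest cell of each group, while id1 was at 272 against 184. The heart and mesenchyme factor gene hand2 was at 153 CPM, against 236 in cluster 0 and 802 in cluster 1. The epicardial factor genes tbx18 and wt1b had 1 UMI and 2 UMIs.

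Retinoid genes differed from those of the mural-like cells. Of 20 listed, 13 had a UMI and 3 had at least 20. Past 4-fold higher were 2 of 4 compared with cluster 0 and 2 of 3 with cluster 1 (10.9% and 13.4% of all genes). These were crabp2a and rbp5, which were compared only through their UMIs in cluster 4, so the count is no result about the list. Against cluster 1, 1 was lower (9.03% of all genes). The binding protein gene crabp2a had 39 UMIs in 14 cells and 0 in every other day 7 cell, day 0 cell and day 3 cell. It was at least 71.2-fold higher than in the other day 7 cells, counted against 3 UMIs. The binding protein gene rbp5 had 21 UMIs in 10 cells, 1 in cluster 0 and 0 in cluster 1. By contrast the retinol carrier gene rbp4 was at 359 CPM against 11306 in cluster 1, 31.5-fold lower (25.1 to 40.2), and 2.55-fold above cluster 0 (1.86 to 3.49). Complement factor D (cfd), which starts the alternative complement pathway, was at 311 CPM, 57.6-fold lower than in cluster 1 (45.1 to 74.8) and 6.25-fold lower than in cluster 0 (4.87 to 8.14). It was the only one of 8 detected genes of the complement list that reached 20 UMIs in the 53 cells. Of 3 compared with each reference, 0 were past 4-fold higher (10.9% and 13.4% of all genes) and 1 was lower (9.48% and 9.03%).

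Contractile genes were shared with the mural-like cells in part. Transgelin (tagln), an actin-binding protein of smooth muscle, was found in 48 of 53 cells at a median of 4162 CPM, with 27273 in the highest. Its summed 5737 CPM was 52.8-fold above cluster 0 (41.8 to 67.6) and 1.60-fold above cluster 1 (1.46 to 1.75). Smooth muscle actin (acta2) was found in 41 cells at 2462 CPM, 14.2-fold above cluster 0 (11.6 to 17.4) but 3.94-fold lower than in cluster 1 (3.57 to 4.34). The myosin light chain gene myl9a was at 2147 CPM against 264 and 3123, and the filament regulator gene lmod1b at 439.8 against 15.9 and 863. Tropomyosin genes tpm2 and tpm4b were 12.4-fold (6.65 to 25) and 23.9-fold (11.4 to 58.0) above cluster 0, and 1.24-fold (0.801 to 1.93) and 2.10-fold (1.32 to 3.42) above cluster 1.

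The other mural markers went in both directions. Over the marker list, 2 of 7 genes compared with cluster 1 were past 4-fold higher in cluster 4 (13.4% of all genes) and 2 lower (9.03%). The pericyte gene rgs5a had 5 UMIs in cluster 4, or 23.9 CPM, against 3641 in cluster 1 and 36.2 in cluster 0. Smooth muscle myosin (myh11a) had 8 UMIs against 93 in cluster 1. The potassium channel subunit gene kcne4 was higher, at 272 CPM in 25 cells against 28.3 in cluster 1 and 146 in cluster 0. The receptor gene notch3 had 2 UMIs in cluster 4 and 1 in cluster 1. The paralogue rgs5b was also higher, with 81 UMIs in 16 cells of cluster 4, 2 in cluster 1 and 4 in cluster 0. The ratio of acta2 to rgs5a UMIs was 103 in cluster 4 (43.9 to 319) and 2.66 in cluster 1 (2.45 to 2.89). The ratio of tagln to acta2 was 2.33 (2.10 to 2.59) and 0.370 (0.340 to 0.402). These intervals, too, cover counting error only.

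Actin-binding and membrane-linker genes made up most of the remaining cytoskeletal list. Of 63 listed genes, 49 had a UMI and 33 had at least 20. Past 4-fold higher were 19 of 36 compared with cluster 0 and 4 of 37 compared with cluster 1, and 3 and 2 were lower. Over all genes the higher share was 10.9% and 13.4%, so against cluster 1 the list did not exceed it. The list had medians of 2.03 and 0.17. Annexin A2 (anxa2a) was detected in all 53 cells at 11956 CPM, 4.85-fold above cluster 0 (4.56 to 5.16) and 5.81-fold above cluster 1 (5.25 to 6.45). The galectin gene lgals2a, kept with this list although galectins are sugar-binding proteins, was found in 52 cells at 4867 CPM, 65.9-fold (49.7 to 89.1) and 5.52-fold (4.72 to 6.48) above them. The annexin partner gene s100a10b was at 18678, 13245 and 14245 CPM, and thymosin beta 4 (tmsb4x), which binds actin monomers, at 9905, 2410.3 and 13306. Vimentin (vim), often used as a mesenchymal marker, had 26 UMIs and was 4.17-fold lower than in cluster 1 (2.70 to 6.67). The profilin gene pfn1 had 315 of 609 UMIs in 1 cell and stood below cluster 1, at 2911 against 7292 CPM.

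**Figure D4:**
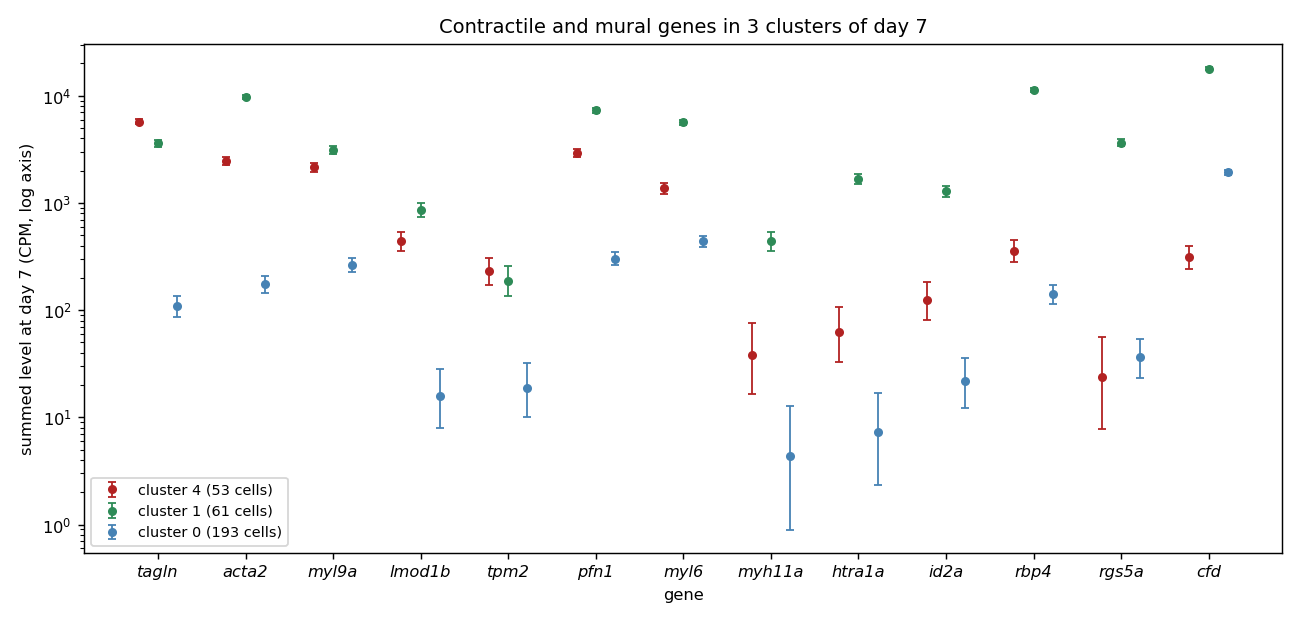
Summed level (CPM, log axis) of 13 contractile genes and genes high in the mural-like cluster, in the day 7 cells of clusters 4, 1 and 0; bars are exact Poisson 95% intervals, which cover counting error only. The level of tagln is 5737 CPM in cluster 4 and 3585 in cluster 1, whereas rgs5a is at 23.9 against 3641.

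Only 7 genes were past 4-fold lower than both references. A separate ranking, without the 4-fold cut, took the 396 genes with a UMI in at least 25% of the cells of both references. In it, cfd had the lowest larger log2 ratio. The next 9 were si:dkey-112e7.2, the caveola gene sdprb, the ribosome biogenesis genes nsa2 and rsl24d1, the calmodulin gene calm1a, the glycolytic gene tpi1b, the ADP/ATP carrier gene slc25a5, the mitochondrial gene romo1 and the linker histone gene h1fx. The carrier gene slc25a5 was found in all 53 cells at 3179 CPM, 2.97-fold lower than in cluster 0 (2.74 to 3.22) and 2.94-fold lower than in cluster 1 (2.69 to 3.22). For nsa2 the level was 832 CPM, 3.63-fold lower (3.11 to 4.26) and 3.54-fold lower (2.99 to 4.21). Neither slc25a5 nor nsa2 was thus among the 7. Ribosomal protein, mitochondrial and heart muscle genes together took 33.1% of the UMIs of cluster 4, 45.4% of cluster 0 and 38.5% of cluster 1. A level in CPM is a share of the total, so these shares move with all others.

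Genes of amino acid supply and mTOR signalling, the pathway the study set out from, were few. Of 67 listed, 29 had a UMI and 3 had at least 20. Past 4-fold higher were 0 of 13 compared with cluster 0 and 0 of 11 with cluster 1 (10.9% and 13.4% of all genes). Lower were 2 and 3 (9.48% and 9.03% of all genes), and the medians of the list were -1.06 and -0.850. With so few genes compared, these counts do not set the pathway apart from all genes. The translation repressor gene eif4ebp3l was at 119.5 CPM against 387 in cluster 0 and 410.4 in cluster 1. Most of the cluster 0 level came from 1 cell, since the log2 ratio moved from -1.62 to 0.23 without the richest cell of each group. The amino acid response factor gene atf4b was at 143, 249 and 585 CPM, and the ribosomal protein gene rps6, a target of the pathway's kinases, at 3819.7, 7996 and 6891. The genes that make proline, glycine and serine, amino acids abundant in collagen, had few or 0 UMIs in cluster 4. There were 7 of psph, 6 of pycr1a, 4 of pycr1b and 0 of aldh18a1, phgdh and shmt2. The counts are of cluster 4 alone, and a comparison needs 20 UMIs in cluster 4 and a reference together. No reference values are given for these genes, so no difference is read from them.

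Of 39 cell cycle genes listed, 16 had a UMI and 2 had at least 20. Past 4-fold higher or lower were 0 of 4 compared with cluster 0 and 0 of 3 compared with cluster 1. Of all genes, 10.9% and 13.4% were higher and 9.48% and 9.03% lower. The chromatin genes hmgb2b and hmgb2a were at 445 and 282 CPM, against 311 and 385 in cluster 0 and 325 and 429 in cluster 1. The whole list summed to 956, 862 and 882 CPM in clusters 4, 0 and 1. The proliferation genes mki67, top2a, cdk1 and ccnb1 had 0 UMIs in the 53 cells, and in the 193 cells of cluster 0 they had 2, 1, 2 and 3, so they were sparse in both. The replication gene pcna had 9 UMIs in cluster 4.

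Of 44 immediate early and heat shock genes, a list added after the data had been seen, 30 had a UMI and 16 had at least 20. Of these, 4 of 24 compared with cluster 0 and 1 of 24 compared with cluster 1 were past 4-fold higher, where 10.9% and 13.4% of all genes were, and 0 were lower. The heat shock gene hsp70.2 was found in 45 cells at 3227 CPM, 6.71-fold above cluster 0 (5.88 to 7.68) and 2.11-fold above cluster 1 (1.84 to 2.41). At day 0 it had 1858 CPM over all cells and at day 3 5842. Near-identical hsp70 genes share reads, so how UMIs divide between hsp70.2 and hsp70.1, which had 473 UMIs, is uncertain. The immediate early gene jun was found in 24 of 53 cells. A related gene, fosab, was lower than in both references, at 602 CPM against 1292 and 1481. Digestion can induce these genes, and its part in their levels was not tested.

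Within cluster 4, contractile genes varied together from cell to cell, and so did some of the matrix genes. Over the 53 cells, the log levels of acta2 and myl9a had a correlation of 0.71, and 0.64 after thinning to equal depth. For acta2 and tagln it was 0.59 and 0.63. Some matrix genes went together as well, with a correlation for postnb of 0.62 with col1a2 (0.52 thinned), 0.59 with col5a1 (0.58 thinned) and 0.56 with col12a1a (0.51 thinned). For other genes of the matrix lists, the correlation with postnb was 0.27 for clu (0.25 thinned), -0.05 for mgp (-0.12 thinned) and -0.44 for mfap5 (-0.39 thinned). Between the contractile and matrix genes, it was 0.28 for postnb with acta2 (0.27 thinned), which is lower than for the collagens but not than for clu, mgp and mfap5. These pairs were chosen after the values were seen, the cells share 1 library and a depth that differs between cells, and the values are a description.

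Contractile and matrix genes were detected together in many cells. Of the 41 cells with an acta2 UMI, 35 held postnb and 40 held col1a2, and of the 12 cells without, 9 held postnb and 12 held col1a2. Both matrix genes were thus found in most cells with or without acta2, so these counts do not link contractile to matrix genes. Other pairs ran in opposite directions: tagln had a correlation of -0.54 with the enhancer gene pcolcea (-0.55 thinned) and -0.52 with the factor gene cebpd (-0.50 thinned). The genes pcolcea and cebpd were detected in 13 and 15 cells, so these values rest on few cells. The genes dpt, of a matrix protein, and c6.1, looked up after the values were seen, were found in 16 and 21 cells. Of 12 cells with a tcf21 UMI, 9 held postnb, 12 held fn1b and 11 held dcn, against 35, 35 and 33 of the 41 cells without. Of 14 cells with crabp2a, 14 held postnb and 14 held fn1b, against 30 and 33 of the 39 cells without.

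**Figure D5:**
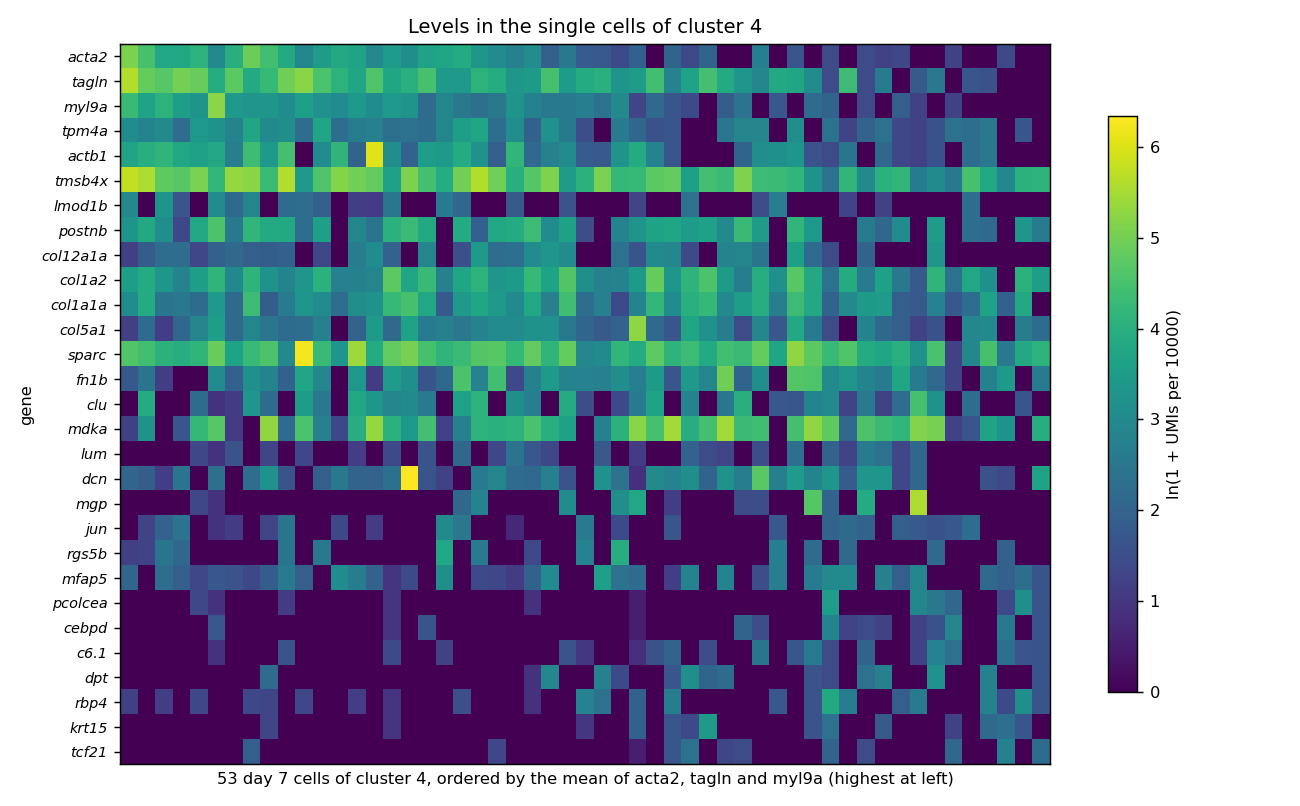
Level of 29 genes in each of the 53 day 7 cells of cluster 4, as ln(1 + UMIs per 10000); rows are genes and columns are cells, ordered by the mean of acta2, tagln and myl9a. Levels of acta2, tagln and myl9a decline from left to right by construction, while col1a2 and sparc are found in 52 and 53 cells across the whole width.

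Single cells decided the level of many genes. Of 867 genes with at least 20 UMIs in cluster 4, 95 (10.96%) had over 50% of their UMIs in 1 cell, beside 160 of 1676 (9.55%) in cluster 0 and 93 of 778 (12.0%) in cluster 1. Some of those cells were deep and others were not. The deepest cell held 280 of the col5a1 UMIs, whereas the cell with 254 thbs4b UMIs ranked 36th of 53 by total UMIs, that with 267 lox UMIs 26th and that with 140 hspg2 UMIs 42nd. The calponin gene cnn3a had 140 of 216 UMIs in 1 cell, and the same cell held 188 of the 208 UMIs of lasp1, an actin-binding gene named here after its values were seen.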

How the data were processed

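The authors deposited, per the file headers, 1 table of expression values for 26320 genes in 754 cells and 1 table of counts of UMIs and of detected genes per cell, with the day and cluster numbers at 2 resolutions. The deposited expression values are natural log values (ln) of 1 plus UMIs per 10000. Cell Ranger and the genome build GRCz10 are named in the submitters' processing notes without a version. The sources used here do not give the tool of normalization. The logarithm was reversed and multiplied by each cell's deposited UMI count. All 497895 values above 0 came within 0.001 of a whole number, and totals equalled the deposited counts in 754 of 754 cells. All values reported rest on these recovered counts.

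The table holds 272, 114 and 368 cells of days 0, 3 and 7, where the labels state 272, 141 and 368. No cell had under 2004 UMIs, no cell was removed, and no doublet caller was run. No barcode of cluster 4 was shared between libraries. The deposited mitochondrial percent is 0 in every cell and was replaced by a percent from 13 mitochondrial-encoded genes. UMIs were summed per cluster and day and scaled to CPM, with exact Poisson intervals for levels, exact intervals for ratios of 2 counts and Clopper-Pearson intervals for shares. Thinning drew 2000 UMIs per cell with a fixed seed and left out 0 cells. Python 3.11.15, numpy 2.4.6, pandas 2.3.3, SciPy 1.17.1 and matplotlib 3.10.9 were used.

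The cluster, its 6 markers and all gene lists were chosen with earlier results of these data known, so no list gives independent support. The list of immediate early and heat shock genes was written after the data files had been opened. Of 970 listed entries, 863 were found under the listed symbol, 19 under another name and 88 were not found. Named genes are the 6 markers, the 20 leading and 10 lowest genes, and list members with at least 20 UMIs that ranked by level or by ratio. Markers of other cell types and defining genes at 0 were also named, except 1 gene that is not reported here. The genes pdgfra, tnc, htra1a, nrg1, pcna, pycr1a, pycr1b, psph, wt1b, tbx18, notch3, myh11a, rgs5a, dpt, c6.1 and lasp1 are named outside that rule, chosen after their values were seen. The alternatives varied the pseudocount, the filter on low counts, the scaling, the weighting of cells, the depth and which cells were left out.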

Additional observations from a re-analysis of the deposited data

How the results depend on the processing

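Each count of genes and each list median was recomputed under 11 alternatives. No paired analysis was possible because each day had 1 library. The 6-marker share and the share of day 7 cells have no such alternative beyond the thinned values given above. With a pseudocount of 50 CPM, the genes at least 4-fold above cluster 0, cluster 1 and the other day 7 cells went from 241, 186 and 194 to 146, 118 and 114, and all of these were among the genes counted with 10 CPM. Removing the richest cell of each gene left 112 genes above the other day 7 cells, 111 of them among the 194. A filter of 5 UMIs, or of 1, gave 300 genes above cluster 1, since it tests more genes. For the 5 matrix lists pooled, the median log2 ratio to cluster 0 was 2.91, and 3.63 with a pseudocount of 1 CPM, 1.87 with 50 CPM, 1.89 with at least 5 UMIs and 0.97 with at least 1. Against cluster 1 it was 3.69, and 4.39, 2.18, 2.12 and 1.48 under the same settings. Against the other day 7 cells it was 2.27, and 1.46 with 50 CPM, 1.62 with at least 5 UMIs, 0.82 with at least 1 and 2.96 after thinning. Median-of-ratios scaling moved the median of all genes from 0.10 to -0.51 against cluster 0 and left 168 of the 241 genes. Among single genes, 7 values changed sign and 326 moved by more than their counting error. Without the richest cell of each gene, the log2 ratio to cluster 0 was -1.50 for hspg2 and 0.17 for tln1, a cytoskeletal linker gene. That to cluster 1 was 0.019 for cyr61, -0.39 for snai2, -0.10 for xbp1 and -0.24 for tram1, and -0.24 for tram1 also without cells over 2 medians of UMIs. Few UMIs per gene and 1 library per day limit what can be read from these cells.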

Other observations

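Several genes with most of their UMIs in 1 cell had the same cell in common. The cell richest in pfn1 was also the richest in tgfb3 and tram1 and held 6884 UMIs, the third highest total of the 53. The deepest cell, with 14507 UMIs, held 280 UMIs of col5a1 and 41 of timp2a. A cell with 4290 UMIs held 59 of 96 ctsk UMIs and 43 of 52 UMIs of btg2, an anti-proliferative gene. In a cell of 4170 UMIs, 253 of the 272 UMIs of anapc11, a subunit gene of the anaphase-promoting complex, made up 6.07% of its total. The genes btg2 and anapc11 were chosen after their values were seen.

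Some gene pairs ran in opposite directions over the 53 cells. The correlation was -0.47 for lum with rgs5b (-0.40 thinned) and -0.44 for postnb with mfap5 (-0.39 thinned). For mgp with postnb it was -0.05 (-0.12 thinned). The pairs were chosen after their values were seen, and the cells share 1 library and differ in depth.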
